A study of Mus musculus with 8 samples.

Results

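The genes described here encode 10 receptors of the myeloid cell surface: the sialic acid binding lectins Siglec1, Siglece, Siglecf, Siglecg, Siglech and Cd33, the CD300 family receptors Cd300a, Cd300lf and Cd300ld, and Pirb, the paired immunoglobulin-like receptor B. They were chosen by gene name, and all 10 were found among the 41018 genes of the table. RNA had been sequenced from CD11b+ bone marrow (BM) cells of C57BL/6 female mice in 2 groups of 4 samples. Mice of the PC-EV group were educated for 3 weeks with extracellular vesicles (EVs) from PAN02, a mouse pancreatic adenocarcinoma line. The control group received PBS on the same schedule, although GEO's treatment label calls these animals untreated. CD11b+ cells were taken with magnetic beads from flushed femurs and tibiae after lysis of red blood cells. For a qPCR measurement on such cells the study pooled several animals per point; for the sequenced samples the sources used here do not say if animals were pooled.

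Siglecs read sialic acid, the sugar that caps many glycans of the animal's own cells. CD300 receptors bind lipids exposed on dying cells and membranes, and PIR-B binds MHC class I molecules. Inhibitory receptors of these families carry tyrosines in their cytoplasmic tails which, once phosphorylated by Src family kinases, recruit the phosphatases SHP-1 and SHP-2. Activating relatives have short tails and signal through adaptors such as DAP12 (gene Tyrobp) or the Fc receptor gamma chain (gene Fcer1g). Many of these genes lie side by side as inhibitory and activating relatives with similar ectodomains.

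The level used throughout is a value deposited by the authors for each gene, the larger of the means of the 2 groups, in RPKM, counted reads divided by exon length and by the depth of the library. The column does not say which group was the larger, so the mean of the other group lies anywhere from 0 to this value, and levels of different genes may come from different groups. No value of a single sample was analysed here. No difference between PC-EV-educated and PBS mice is therefore given for these receptors, and neither is a spread between samples. In such a bulk preparation fewer cells of a type and less RNA per cell cannot be told apart.

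The unit and the depth were read from the values themselves. Multiplied by exon length, the smallest values of the table repeated at fixed steps. The 8 most common values were taken as the steps, a number set beforehand to that of the samples. They ran from 4.672 to 5.92. Of the 4392 values under 6 on this scale, 97.5% lay within 0.002 of a step. Each step is what a single counted read, or read pair, of a library is worth after averaging over 4 samples, which places the depths of the 8 libraries between 42200000 and 53500000 counted reads. Sums of 2 steps showed which libraries had been averaged together. Only splits into 2 sets of 4 were compared, and the one with the most genes at sums within its sets was taken. It had 76 to 124 genes at each of the 12 sums within a set. Each of the 16 sums across the sets had 0 or 1 gene. Depths ran from 42300000 to 53500000 reads in the first set and from 42200000 to 49200000 reads in the second. Which set is the PC-EV group cannot be read from the steps.

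**Figure D1:**
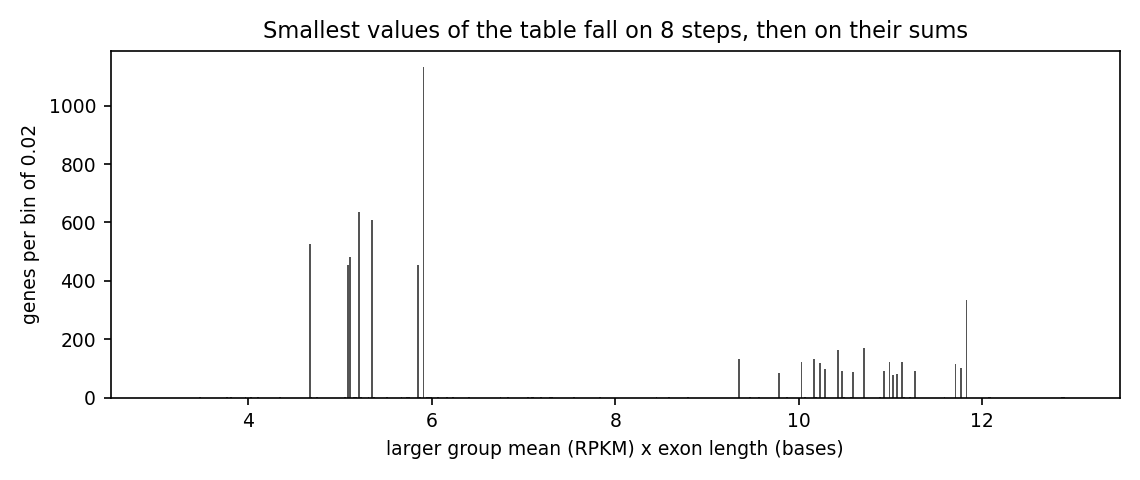
Histogram of the larger group mean (RPKM) multiplied by exon length in bases, in bins of 0.02, for genes with products from 3 to 13. The bars stand at 8 separate steps between 4.672 and 5.92 (2 of them merge near 5.92), followed by a second series of bars where 2 reads were counted.

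The sequences that separate the inhibitory receptors from the others are the tyrosine motifs of their tails. The inhibitory motif was searched as isoleucine, valine, leucine or serine, any residue, tyrosine, any pair of residues, then isoleucine, valine or leucine. The switch motif was searched as threonine, any residue, tyrosine, any pair of residues, then isoleucine or valine. Both were searched after the transmembrane window, in the translated coding sequence of 1 GENCODE vM21 transcript per gene. There were 15 motifs in 6 of the 10 genes, 13 inhibitory and 2 switch. Their coding bases are shown for 14 of the 15, 5′ to 3′ on the gene's strand, with the tyrosine codon in capitals and GRCm38 coordinates. Tyrosines are numbered from the first methionine.

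Pirb, tyrosine 713, chr7:3713862-3714103, across an intron: agcctaTATgcttcagtg
Pirb, tyrosine 794, chr7:3712786-3712803: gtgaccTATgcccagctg
Pirb, tyrosine 824, chr7:3712696-3712713: agtgtaTATgctactctg
Siglece, tyrosine 432, chr7:43651585-43651602: atacatTATgcgaccctc
Siglece, tyrosine 455, switch motif, chr7:43651516-43651533: acggagTACtcagagata
Siglecf, tyrosine 538, chr7:43358670-43358687: ctccacTATgcctccctc
Siglecf, tyrosine 561, chr7:43358739-43358756: tctgtaTACacagagatc
Siglecg, tyrosine 659, chr7:43417979-43417996: ctccacTATgctgctctc
Siglecg, tyrosine 682, chr7:43418048-43418065: tctgatTACacagaggtc
Cd300a, tyrosine 262, chr11:114899846-114899863: gtggaaTATagcacattg
Cd300a, tyrosine 274, chr11:114901147-114901164: cttcacTATtcatccgtg
Cd300lf, tyrosine 234, chr11:115117648-115117665: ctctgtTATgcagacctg
Cd300lf, tyrosine 282, chr11:115117112-115117129: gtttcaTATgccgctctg
Cd300lf, tyrosine 318, switch motif, chr11:115117004-115117021: acagagTACagcagcatc

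Siglece, Siglecf and Siglecg ended in the same arrangement: the last 2 motifs stood 23 residues apart, and 12, 8 and 6 residues followed the last tyrosine. The spacing was 12 residues in Cd300a, 36 in Cd300lf and 30 in Pirb. The remaining motif, in Siglecg, had its tyrosine at position 590 (chromosome 7, 43412688 to 43412705). TAT encoded 10 of the 15 tyrosines and TAC 5. In the same search over 21618 mouse proteins, 9.35% had an inhibitory motif after a transmembrane window, or 26.7% of those with such a window. The motif is short, so a match is a description of the letters and not a working site.

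Receptors with and without these motifs overlapped in level. The 6 genes with an inhibitory motif spanned 7.16 to 126 RPKM and held 72.5% of the summed level of the 10. The 4 without it, Siglec1, Siglech, Cd33 and Cd300ld, spanned 0.139 to 59.3 RPKM and held 27.5%. Siglec1, or sialoadhesin, is the longest protein at 1701 residues and had a tail of 37 residues with 1 tyrosine. Cd33 had a tail of 66 residues with 1 tyrosine that did not match. Siglech and Cd300ld had tails of 25 and 24 residues with no tyrosine. A lysine or arginine lay within the 19-residue transmembrane window in Siglech, Cd33 and Siglecf. Over all proteins with a window the share was 23.8%. Of the 10, only Siglech had the residue in the middle 11 of the window. In Cd33 and Siglecf it lay nearer an end, as it did in Pira2 and Lilra6, the activating relatives of Pirb described below. The window was placed by hydrophobicity alone, so the place of the residue in it does not tell receptors that pair from others. A basic residue within the membrane is how DAP12-coupled receptors pair with their adaptor, and such pairing was not tested here.

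**Figure D2:**
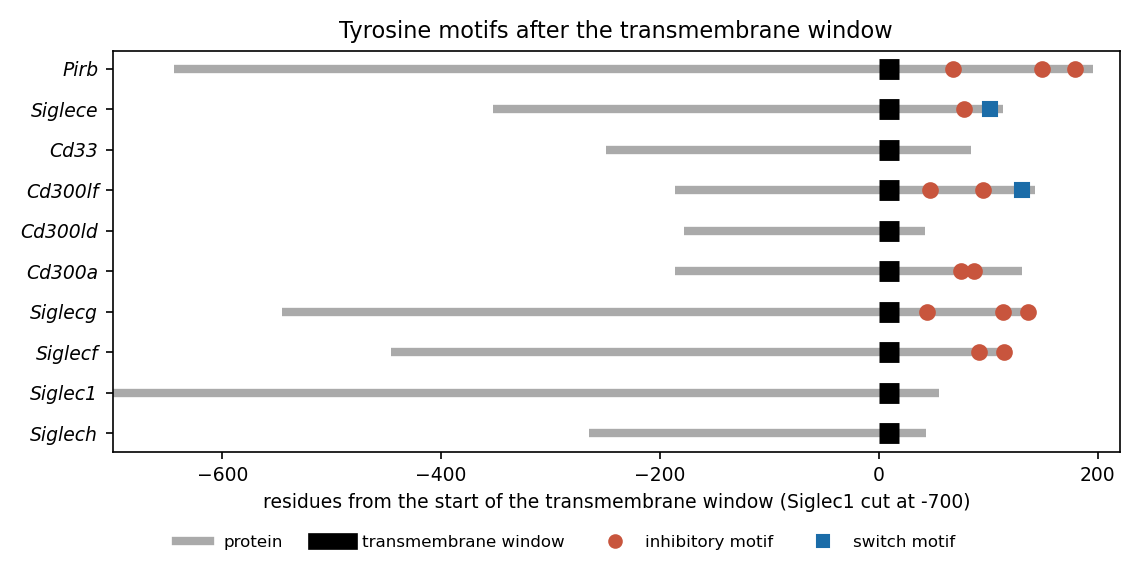
Proteins of the 10 receptors, ordered by level from Pirb to Siglech and aligned at the start of the transmembrane window, with residues on the x axis (Siglec1 runs beyond the left edge). Red circles are inhibitory motifs and blue squares switch motifs; 6 proteins carry them and Cd33, Cd300ld, Siglec1 and Siglech carry none.

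Pirb was the most abundant of the receptors. Its level was 126 RPKM (counting interval 125 to 126), rank 244 of the 28225 genes with a level above 0 and above 98.8% of the protein-coding genes among them. The gene lies on chromosome 7 (3711409 to 3720391, minus strand, GRCm38). About 94959 to 120315 counted reads of the group with the larger mean stood behind the value, the range depending on which libraries they came from. Intervals of levels are exact Poisson 95% intervals, and those of ratios are 95% intervals by a normal approximation on the log scale. Both cover counting error alone, not the spread between samples. The PIR-B protein of 841 residues had the longest tail of the 10 genes, 178 residues with 5 tyrosines, of which the 3 shown above matched the motif.

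The value of Pirb has a limit beyond counting error. Of the 4840 different stretches of 100 bases in its transcripts, 1002 (20.7%) also occur in transcripts of 9 other genes, so reads from there could have been counted for either. The closest were Gm14548, with 567 shared stretches and a level of 48.7 RPKM, and Pira2, with 518 and 27.9 RPKM. Lilra6 shared 270 stretches and had 30 RPKM. Gm15922 had 19.4 RPKM and Gm15448 6.86 RPKM. Over their aligned residues the PIR-B protein was 89.9% identical to that of Pira2 and 88.3% to that of Lilra6. Pira2 and Lilra6 are of the activating kind, with tails of 15 residues and a basic residue in the window, outside its middle 11 residues. The level of Pirb was 4.51 times that of Pira2 and 4.19 times that of Lilra6. The first ratio is uncertain, since 84.1% of the 3462 stretches of Pira2 occur in other genes, 2488 of them in Gm15922; for Lilra6 the share was 11.9%. The sources used here do not say how reads with several matches were counted.

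Siglece and Cd33 were the abundant Siglecs. Siglece, an inhibitory Siglec of mouse neutrophils and monocytes (chromosome 7, 43651070 to 43660161, minus strand), had 77.6 RPKM (76.7 to 78.6), rank 391. Cd33 (chromosome 7, 43524216 to 43544428, minus strand), whose human counterpart is an inhibitory receptor of myeloid cells, had 59.3 RPKM (58.9 to 59.7), rank 500. Neither shared a stretch of 100 bases with another gene. Siglece had 10.8 times the level of Siglecf, 9.93 times that of Siglecg and 13.4 times that of Siglec1. Cd33 has long exons, 7771 bases against 1849 for Siglece. Per gene rather than per kilobase it therefore gave more reads, 461 against 144 on the scale of RPKM times kilobases.

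The CD300 receptors followed. Cd300lf, the inhibitory receptor CLM-1 (chromosome 11, 115116214 to 115133992, minus strand), had 43.6 RPKM (43.1 to 44). Cd300ld, a short-tailed receptor of neutrophils (chromosome 11, 114982274 to 114989922, minus strand), had 41.5 RPKM (41 to 42.1). Cd300a, an inhibitory receptor that binds phosphatidylserine and phosphatidylethanolamine (chromosome 11, 114890041 to 114904654, plus strand), had 20.1 RPKM (19.8 to 20.4). The long-tailed Cd300lf and the short-tailed Cd300ld thus stood at nearly the same level, with a ratio of 1.05 (1.03 to 1.07 from counting error). Their proteins were 56.2% identical over aligned residues, and 35 stretches of 100 bases occurred in both genes, 1.37% of those of Cd300ld. The level of Cd300lf was 2.17 times that of Cd300a.

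The 4 least abundant genes were the Siglecs that are known as markers of other cells. Siglecg, an inhibitory Siglec best known from B cells (chromosome 7, 43408204 to 43418358, plus strand), had 7.82 RPKM (7.64 to 8.01). Siglecf, a marker of eosinophils (chromosome 7, 43351341 to 43359531, plus strand), had 7.16 RPKM (6.93 to 7.40). Siglec1, a marker of resident macrophages (chromosome 2, 131069220 to 131086765, minus strand), had 5.78 RPKM (5.65 to 5.91). Siglech, a marker of plasmacytoid dendritic cells (chromosome 7, 55768178 to 55778925, plus strand), was far lower at 0.139 RPKM (0.111 to 0.172). About 79 to 101 counted reads stood behind it. The level of Siglec1 was 41.6 times that of Siglech (33.6 to 51.3), by far the widest gap between neighbours in the order, and Pirb stood 904 times above it.

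The order of the 10 levels was thus Pirb, Siglece, Cd33, Cd300lf, Cd300ld, Cd300a, Siglecg, Siglecf, Siglec1 and Siglech. The ratios of neighbours before the last were 1.05 to 2.56. All 9 ratios had counting intervals above 1, the closest being those of Cd300lf to Cd300ld and of Siglecg to Siglecf (1.09, 1.05 to 1.14). Counting error was small at this depth, and without values of single samples it is not known whether any of these neighbours differed beyond the spread between samples. Of the 10 genes, 9 had a level of at least 1 RPKM and 6 of at least 10, while 45.5% and 15.4% of the protein-coding genes with a level above 0 did. The set was put together with earlier results of these data in view, so these shares describe it and test nothing. None of the 10 shared exon bases with another annotated gene.

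**Figure D3:**
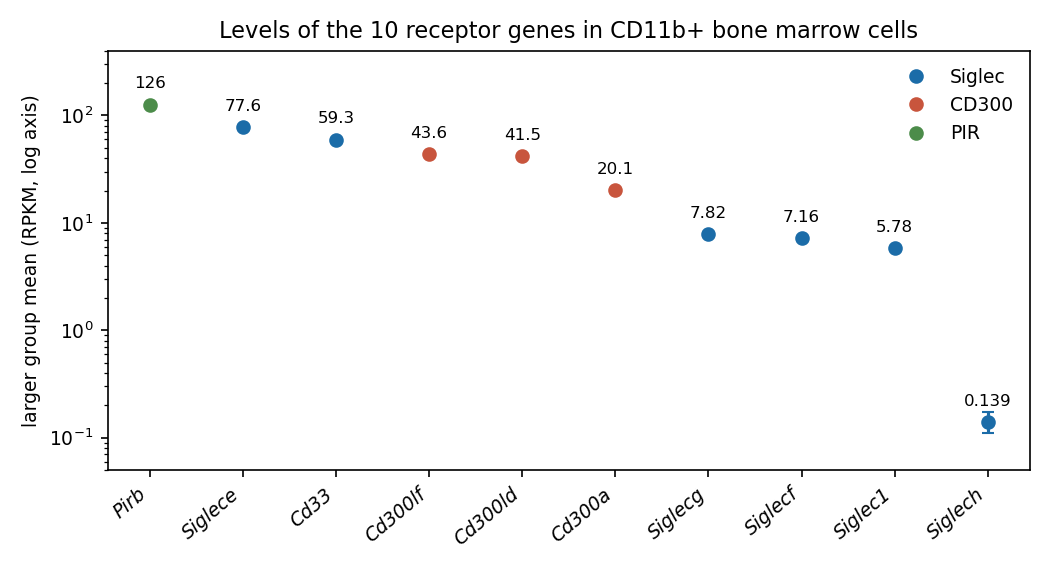
Larger group mean (RPKM, log axis) of each of the 10 genes, coloured by family; bars are Poisson 95% intervals for counting error and are smaller than the point for every gene but Siglech. The levels descend from 126 for Pirb to 5.78 for Siglec1, and Siglech stands apart at 0.139.

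Among their relatives the receptors took different shares of the family total. The 9 genes of the Siglec family had a summed level of 159 RPKM, of which the 6 genes described here held 99.1%. The others were the myelin-associated glycoprotein gene Mag at 0.825 RPKM, the B cell receptor Cd22 at 0.620 RPKM and Siglec15, expressed in osteoclasts, at 0.0137 RPKM, the worth of 3 counted reads. The 12 genes of the CD300 family summed to 194 RPKM, 54.2% of it from Cd300a, Cd300lf and Cd300ld. Most of the rest came from Cd300lb, an activating DAP12-coupled receptor, at 53.1 RPKM, and from Cd300c2, also short-tailed, at 20.4 RPKM. Cd300lb thus had a higher level than each of the 3 CD300 genes described here, 2.65 times that of Cd300a. Lilrb4a_1 and Lilr4b, relatives of Pirb on chromosome 10, stood at 153 and 166 RPKM and overlap on the genome. Of their stretches of 100 bases, 94.1% and 8.80% occur in other genes, so reads from there could have been counted elsewhere. For Lilrb4a_1, 1941 of the 1964 shared stretches occur in another gene named Lilrb4a.

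The CD300 genes other than Cd300lg lie in a row on chromosome 11, 11 genes over 244 kilobases, and neighbours differed widely in level. Of the 11, 6 had at least 10 RPKM. Next to Cd300ld and Cd300c2 stood Cd300ld2 at 0.0117 RPKM, or 2 counted reads, then Cd300ld4 at 0.159 RPKM and Cd300ld5 at 0.356 RPKM, and beyond them Cd300ld3 at 10.6 RPKM. Between Cd300ld3 and Cd300lf lay Cd300e at 1.8 RPKM. Cd300ld was 74.3% identical in protein to Cd300ld3, Cd300ld4 and Cd300ld5 over aligned residues and had 3.91 times the level of Cd300ld3. The values of these 3 relatives are uncertain: every stretch of 100 bases of Cd300ld5 occurs in other genes too, as do 86.7% of those of Cd300ld4 and 80.9% of those of Cd300ld3. Cd300c, next to Cd300ld on its other side, had 0.266 RPKM.

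**Figure D4:**
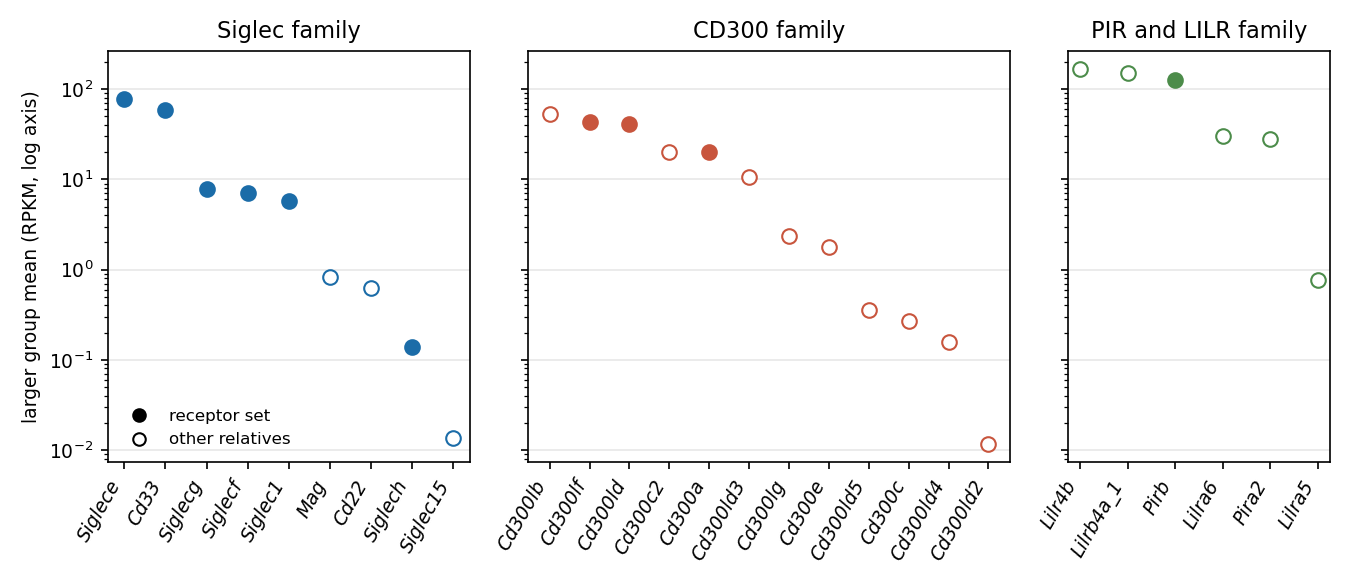
Larger group mean (RPKM, log axis) of the genes of the Siglec, CD300, and PIR and LILR families, taken by gene name and each sorted by level. Filled points are the 10 receptors and open points their relatives, and Lilrb4a_2, listed at 0, is not drawn. Gm14548 (48.7 RPKM), Gm15922 (19.4 RPKM) and Gm15448 (6.86 RPKM), which share stretches with Pirb, carry no family name and are not drawn either. The 5 highest points of the Siglec family are filled and Siglech lies below Mag and Cd22, while Cd300lb, Lilrb4a_1 and Lilr4b stand above the filled points of their families.

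Genes of the signalling partners were abundant. Of the phosphatases, Ptpn6, which encodes SHP-1, had 153 RPKM, 12.3 times the 12.4 RPKM of Ptpn11, which encodes SHP-2; the lipid phosphatase gene Inpp5d (SHIP-1) had 28.7 RPKM. The kinases Fgr, Lyn, Fes and Syk had levels from 57.2 to 98.7 RPKM, and Src itself had 0.268 RPKM. The adaptor gene Tyrobp had 806 RPKM, Fcer1g 271 RPKM and Hcst, which encodes DAP10, 26.6 RPKM. The ligands of PIR-B were abundant too: B2m had 643 RPKM, H2-D1 358 RPKM and H2-K1 109 RPKM. Cd24a, a carrier of Siglec ligands, had 248 RPKM, and Spn (CD43), a counter-receptor of sialoadhesin, 47.2 RPKM. All of these lists were written with earlier results of the data known.

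As lists, the enzymes that make Siglec ligands had lower medians than the partners above, although single genes overlapped. The medians were 2.90 RPKM for sialic acid synthesis and transport and 0.836 RPKM for the sialyltransferases. The lowest median of the partner and ligand lists was 28.7 RPKM, that of the phosphatases. These lists were not made alike. That of the sialyltransferases holds 20 genes of the whole family, several of them near 0, while the partner and ligand lists hold 3 to 6 chosen genes each. Their medians therefore do not show that ligand synthesis was low. Of the 6 genes of sialic acid synthesis and transport, 5 had at least 1 RPKM and none 10, led by Cmah at 5.94 RPKM and Cmas at 5.35 RPKM. Cmah converts sialic acid to its glycolyl form, which human cells lack, and Cmas activates sialic acid for transfer. Of the 19 sialyltransferases in the table, 9 had at least 1 RPKM. St3gal5, which makes the ganglioside GM3, was the highest at 69.3 RPKM, followed by St3gal2 at 15.3 RPKM, St3gal4 at 13.3 RPKM and St3gal1 at 10.2 RPKM. St6gal1, which makes the alpha-2,6-linked ligands read by CD22, had 1.02 RPKM. Of the sialidases, the lysosomal Neu1 had 21.9 RPKM and its protector Ctsa 17.6 RPKM. The other sialidases were low, with Neu3 at 0.208 RPKM, Neu2 at 0.00599 RPKM and Neu4 at 0.00338 RPKM.

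The levels of the Siglecs that mark other cells were set beside marker genes of those cells. Neutrophil genes were the most abundant, with a median of 3493 RPKM over 10 genes (143 to 42151). The 6 classical monocyte genes had a median of 35.4 RPKM (24.6 to 189), and Ly6c2 stood at 3.18 times the level of Cd33. Eosinophil genes were well represented, with a median of 40.4 RPKM over 8 genes (1.98 to 285). The eosinophil granule genes Prg2 and Epx had 39.8 and 3.11 times the level of Siglecf, and Ear1 and Ear2 had 194 and 188 RPKM. Of the 8, only Il5ra, at 1.98 RPKM, lay below Siglecf. Marrow macrophage genes had a median of 20.6 RPKM over 8 genes (2.66 to 62.6), and C1qa, a complement gene of macrophages, stood at 6.00 times Siglec1. Only Spic, at 2.66 RPKM, lay below Siglec1. Itgam, the gene of CD11b itself, was not analysed here.

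Siglecg did not sit with the B cell genes. Its 7.82 RPKM lay above all 8 B cell markers, which had a median of 0.287 RPKM and a range of 0.0990 to 3.54. It had 2.21 times the level of Cd79b, 4.40 times that of Cd79a and 12.6 times that of Cd22. Which cells carried the Siglecg RNA was not tested. Siglech sat among the plasmacytoid dendritic cell genes, whose median was 0.295 RPKM over 8 genes (0.0158 to 7.84). The higher of these were Bst2 at 7.84 RPKM and Irf8 at 4.77 RPKM, which other myeloid cells express as well. Ly6d at 1.01 RPKM and Tcf4 at 0.510 RPKM also lay above Siglech, and the other 4, Ccr9, Klk1, Cox6a2 and Pacsin1, lay below it, between 0.0158 and 0.0810 RPKM. T cell and NK cell genes had medians of 0.109 and 0.326 RPKM.

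**Figure D5:**
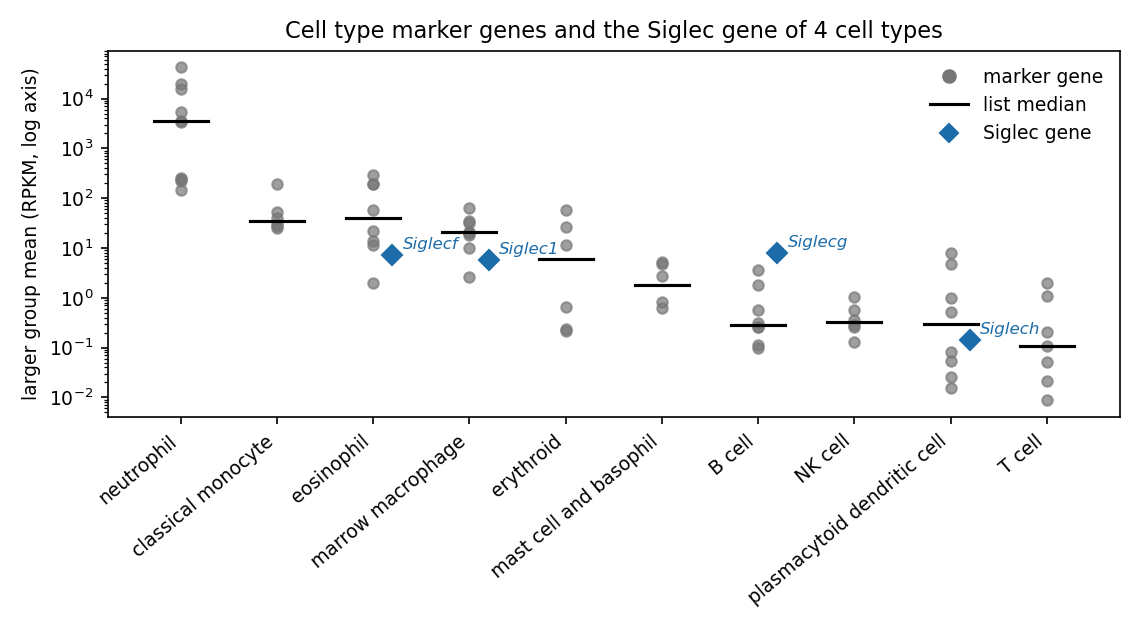
Larger group mean (RPKM, log axis) of marker genes of 10 cell types (grey points, with the median of each list as a line) and of the Siglec known from 4 of these types (blue diamonds); Tpsb2, a mast cell gene listed at 0, is not drawn. Siglecf, Siglec1 and Siglech lie below the medians of their lists, and Siglecg lies above every B cell marker.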

How the data were processed

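The authors sequenced stranded, ribosomal RNA-depleted libraries, mapped reads to GRCm38 and tested PC-EV against PBS samples with an edgeR-type negative binomial model; GRCm38 and edgeR also stand in the submitters' processing notes. The sources used here name no aligner or annotation release. The deposited level is RPKM, the larger of the 2 group means by the authors; its unit came from the steps described in the Results. The other columns hold the authors' own comparison (fold changes, p-values and adjusted p-values) and were not used, nor was the file of their called genes. The planned tests need values of single samples, so none was run.

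Gene types, exon lengths and coding sequences came from GENCODE vM21 (GRCm38), which holds 40934 of the 41018 gene IDs, 39124 with identical start and end, all 10 receptors among them. Step finding was tested on simulated data. Counted reads were level times exon length over the step. The transmembrane window was the best 19-residue Kyte-Doolittle mean of at least 1.6 in the last such stretch, skipping 30 residues. Proteins were aligned globally with BLOSUM62 (gap costs 11 and 1, free ends). Python 3.11.15, pandas 2.3.3, numpy 2.4.6, scipy 1.17.1 and Biopython 1.88 were used. Genes named are all receptors, their relatives and, in each other list, mainly the 4 most abundant; other genes were chosen after their values were seen. Receptors and lists were chosen with earlier results of these data known.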

Additional observations from a re-analysis of the deposited data

How the results depend on the processing

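The median percentile of the 10 receptors was 96.0 among all genes with a level above 0. It was 91.9 among genes of at least 0.1 RPKM, 94.2 among protein-coding genes and 94.8 when levels were multiplied by exon length. That last scale also changed the order: Cd33 passed Siglece, Cd300lf passed it as well, and Siglec1 passed Siglecg and Siglecf. Of the 10 genes, 10 had at least 0.1 RPKM, 9 at least 1 and 6 at least 10. With hydrophobicity thresholds of 1.4 and 1.8 in place of 1.6, inhibitory motifs were again found in 6 of the 10. No paired analysis was possible because the column carries no replicate numbers, and no replicate could be left out for the same reason. Depth limits the value of Siglech and of relatives with 2 or 3 counted reads.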

Other observations

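The Siglec genes of chromosome 7 between Siglecf and Siglece are spread among other genes, unlike the CD300 row: 16 protein-coding genes lie in 309 kilobases, and 4 of them had at least 10 RPKM. These were Cd33 and Siglece together with Etfb, a mitochondrial electron transfer flavoprotein subunit, at 25.5 RPKM, and Nkg7, a granule protein of cytotoxic lymphocytes, at 17.1 RPKM. The level of Nkg7 lay above all 6 NK cell markers, of which the highest was 1.05 RPKM. Which cells carried it was not tested. Lilrb4a_2 was listed at 0, although it lies within the span of Lilrb4a_1, which had 153 RPKM. Both values are uncertain, since 94.1% of the stretches of 100 bases of Lilrb4a_1 occur in other genes, mostly in another gene named Lilrb4a.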
